A study of Canis lupus familiaris with 30 samples.

Results

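The change in blood mononuclear cell transcripts over 9 weeks on a kibble diet was read from the 4 arrays, of 30 in the series, that set kibble-fed dogs at week 9 against kibble-fed dogs at week 0. They were chosen by their labels alone. Adult dogs (Canis lupus familiaris) ate only a premium kibble that contains carbohydrate (8 dogs) or only a raw red meat diet high in protein and fat (7 dogs), and week 0 is the start of feeding. Peripheral blood mononuclear cells (PBMC), the lymphocytes and monocytes that float above a density medium when blood is spun, were the source of total RNA. On each of the 4 arrays, called kibble replicates 1 to 4 here, the week 0 sample carried the green dye Cy3 and the week 9 sample the red dye Cy5. A ratio of these arrays alone therefore holds the change and the dye effect together. The 11 other arrays of weeks 0 and 9 were used to estimate a dye effect for each gene: 4 of meat week 9 against meat week 0, 3 of the diets at week 0 and 4 of the diets at week 9. The diet arrays were scanned in another session than the arrays that set week 9 against week 0. A single dye effect per gene was fitted across both sessions. Sex, breed and age beyond adult are not given, nor is which dog is on which array, and the design text states 6 biological replicates. The p-values therefore measure the spread between arrays, which may be partly technical. Any other difference between the 2 blood samplings cannot be told apart from the diet.

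PBMC preparations hold T cells, B cells, natural killer cells, monocytes and dendritic cells. Platelets are small, stick to leucocytes and often travel with this layer, while red cells and granulocytes mostly sink through the medium and remain as traces. Platelets carry messenger RNA from the megakaryocytes that shed them, and young red cells still carry RNA for globin and for the membrane skeleton. In such bulk samples, fewer cells of a type and less RNA per cell cannot be told apart.

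The scanner files gave the median intensity of each spot in arbitrary units. A test covered 25079 genes and unnamed transcripts whose probe stood well above background in at least 7 of 30 channels, of which 1066 carried a gene symbol. Kibble replicate 1 differed from the others in its background: the median local background was 160.5 in Cy3 and 306 in Cy5, against 19 to 21 and 53 to 58 on replicates 2 to 4. On it 20182 spots stood well above background in Cy3 and 19505 in Cy5, against 26450 to 28619 and 28985 to 31265. Across genes its dye-corrected ratios correlated with those of the other 3 arrays at r = 0.40 to 0.55, and those 3 correlated with each other at 0.71 to 0.73. These are descriptions across genes, which are not independent replicates, and the 4 corrected ratios share 1 dye estimate per gene. The array of meat week 9 and week 0 beside it, meat replicate 1, had 437 spots marked as faulty, against 8 to 38 on the kibble arrays. Of its 43803 spots that were not controls, 42898 in Cy3 and 43610 in Cy5 stood well above background. Its median signals were 260 and 489.5. Kibble replicates 1 and 2 lay on one slide and 3 and 4 on another, each slide with 2 of the meat arrays. Some markers of the labelled cell type were detected, though few were on the array (2 of 19 for T cells). Transcripts of CD4, CD28 and CD8A of T cells, MS4A1 (CD20) of B cells and S100A8, CTSS and CYBB of monocytes were well above background in all 15 channels of kibble-fed dogs. Detection alone does not establish the cell type, since all 9 measured platelet markers were above background in these channels too.

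From week 0 to week 9 on kibble, 1174 of 25079 genes rose and 1539 fell (limma, adjusted p under 0.05), which is 10.8% of those tested, 4.68% higher and 6.14% lower. The largest decreases were larger than the largest increases: 183 fell by at least 1 on the log2 scale and 44 rose by as much. Among genes with a symbol 45 rose and 71 fell. The median size of a called change was 0.39, and 2585 of the 2713 called genes had 1 sign on all 4 arrays, against 33.7% of all genes tested. The calls were made partly from these same arrays, so the shared sign follows largely from the selection. The median over all genes tested was -0.00098. The balance of rises and falls depended on how the dyes were brought to one scale: 43.3% of calls were rises after loess normalisation, and 11.0% of 1105 calls after median centring of each array. Called genes of either direction were brighter than the rest. The median week 0 signal on replicates 2 to 4 was 427 for genes that fell, 351 for genes that rose and 176 for all tested.

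**Figure D1:**
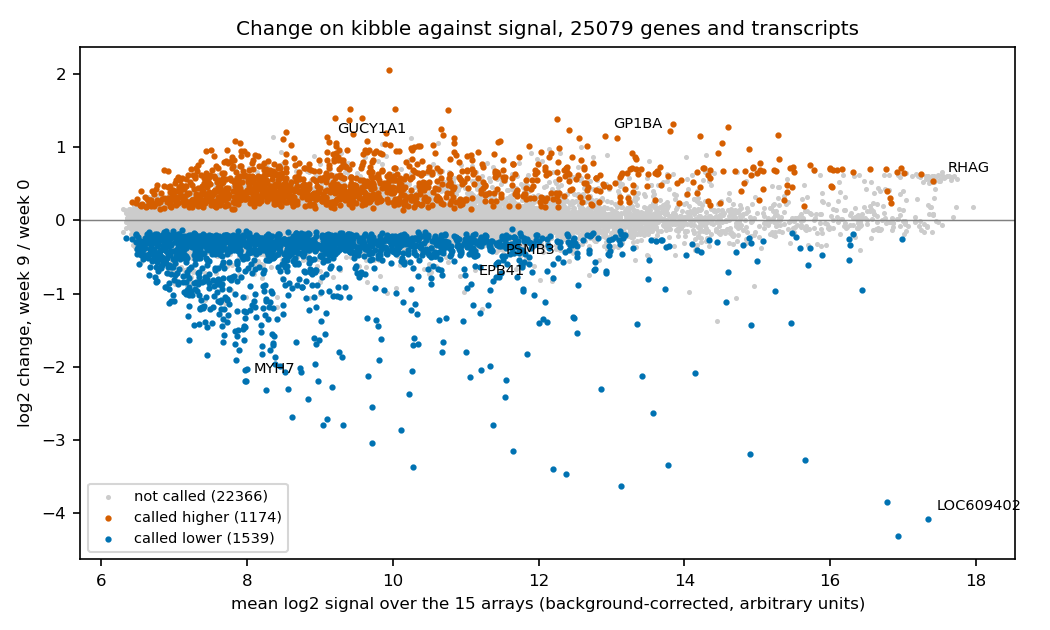
Each point is one of 25079 genes or transcripts, with its mean log2 signal over the 15 arrays on the horizontal axis and its log2 change from week 0 to week 9 on kibble on the vertical axis. Points called higher (1174) and lower (1539) are coloured. The falls reach log2 -4.31, the rises 2.05, and among the 74 brightest probes, above 17, the median change was 0.41.

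Several platelet transcripts rose. Of 9 measured platelet markers 6 were called higher and 0 lower, against 4.68% of all genes called higher, and their median change was 0.78. The list was chosen with earlier results of these data known, so the count describes these genes and is no independent support. All 9 were above background in all 15 kibble channels. Together they made up 0.0361% to 0.0413% of the summed dye-corrected signal of all tested genes in the week 0 samples. In the week 9 samples they made up 0.0552% to 0.115%. Bright members weigh most in such a sum. The mean week 9 signal on the kibble arrays was 19795 for GP1BA and 14029 for SELP, against 361 for PDE5A.

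GP1BA, the platelet receptor chain that binds von Willebrand factor, had dye-corrected log2 ratios of 1.73, 0.93, 0.85 and 1.32 on kibble replicates 1 to 4. Its fitted change was 1.15 ± 0.27 (SE), a 2.22-fold rise (adjusted p = 0.0212). SELP (P-selectin), which platelets bring from granules to their surface to bind leucocytes, stood at 2.24, 0.93, 0.76 and 0.84, with replicate 1 far above the others. The fitted change of SELP was 1.13 ± 0.25 (adjusted p = 0.0168), and a second probe gave 1.06. TFPI, an inhibitor of the tissue factor that starts clotting, gave 1.61, 0.94, 0.75 and 1.31, and a fitted 1.14 ± 0.26 (adjusted p = 0.0188). PTGS1 (cyclooxygenase 1, the platelet enzyme that aspirin blocks) gave 1.89, 0.78, 0.72 and 1.35, and a fitted 1.13 ± 0.28 (adjusted p = 0.0253). In these 4 genes replicate 1 was the highest array and replicate 3 the lowest. PDE5A, which breaks down cyclic GMP, rose by 0.78 ± 0.22 (0.84, 0.70, 0.62 and 1.04 on the 4 arrays). CLU (clusterin, a secreted chaperone stored in platelet granules) rose by 0.59 ± 0.14 (0.65, 0.59, 0.29 and 0.81), while its other probes gave 0.12, 0.20, 0.50 and 0.58. GUCY1A1, a subunit of the nitric oxide receptor that makes cyclic GMP, is not on the list. It rose by 1.08 ± 0.16 (1.55, 0.81, 0.77 and 1.18, adjusted p = 0.0049), the smallest p of any gene named here for a rise.

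The other 3 platelet markers were not called. ITGA2B, the chain of the fibrinogen receptor that is most restricted to platelets, had a change of 0.73 ± 0.30 with all 4 arrays above 0 (adjusted p = 0.134). ITGB3, its partner chain, which other cells also carry, had 0.31 ± 0.22. VWF, made by endothelium and megakaryocytes, had 0.04 ± 0.13, and its sign changed with median centring (-0.33). Without kibble replicate 1 the list's median was 0.77 and 4 members were called. The direction of the list median held in all 35 alternatives, at 0.58 to 1.13, but its calls did not: 0 members were called with the slide as a fixed block, with median centring, with a dye term for each scan session or without either slide, and 1 without kibble replicate 2 or without replicate 4.

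Several red cell membrane transcripts fell, and so did LOC609402, the brightest of the called genes named here. Of 8 measured red cell markers 4 were called lower and 0 higher, against 6.14% of all genes called lower, and their median was -0.39. Only 4 of the 8 were above background in all 15 kibble channels. This list too was chosen with earlier results of these data known, so its count is a description. EPB41 (protein 4.1, which ties the membrane skeleton to the membrane) had ratios of -0.51, -1.13, -0.71 and -1.52 on replicates 1 to 4. It fell by 0.86 on the log2 scale (SE 0.18, adjusted p = 0.0132), and its other probe gave -0.59. RHCE, a carrier of Rh blood group antigens in the membrane, gave -0.35, -0.70, -0.88 and -1.57 and a fitted -0.81 ± 0.17 (adjusted p = 0.0136). It was above background in 7 of 8 week 9 channels. GYPC (an anchor of the membrane skeleton that some leucocytes also make) gave -0.33, -0.23, -0.53 and -0.36, and a fitted -0.45 ± 0.10. In EPB41, RHCE and GYPC each array was below 0, and in EPB41 and RHCE replicate 4 was the lowest.

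LOC609402 fell most of all named genes. It is a protein-coding gene known by number in the RefSeq table used for names (assembly UU_Cfam_GSD_1.0), where it lies beside LOC480784 and LOC485255 and 2 places from HBE1, the embryonic beta-type globin gene. Its ratios were -4.07, -4.26, -4.28 and -5.01, so that no array stood near 0. The fitted change was -4.07 ± 0.54, or 16.8-fold (adjusted p = 0.00351), and its other probe gave -4.04. It was well above background in all 15 kibble channels, with a mean log2 signal of 17.3 that placed it in the brightest class of 74 probes. Near-identical copies can share a probe's signal, so the value may belong to more than this one gene. It kept its call with the slide as a fixed block (-3.57, adjusted p = 0.0333), and lost it without slide 1 (-3.86, adjusted p = 0.0776) or slide 2 (-4.10, adjusted p = 0.0796).

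The other 4 red cell markers were not called. SLC4A1, the anion exchanger band 3, had -0.34 ± 0.12 (adjusted p = 0.0773) and was above background in only 5 of 7 week 0 and 2 of 8 week 9 channels. The carbonic anhydrases CA1 and CA2 had 0.11 ± 0.06 and 0.12 ± 0.20. RHAG, the partner of the Rh proteins, had 0.54 ± 0.20 (0.35, 0.86, 0.60 and 0.04). The probe for RHAG had a mean log2 signal of 17.5 and supplied 97.3% of the list's summed signal at week 0 and 98.9% at week 9. That sum, 0.247% to 0.323% of all signal at week 0 and 0.352% to 0.404% at week 9, is thus the level of 1 probe and moved the other way from the list's median. RHAG lies in the same brightest class, whose median change was 0.41 and median dye term 0.40, and whether its value is a property of that class was not tested. The list's median lay between -0.74 and -0.34 in all 35 alternatives. The count of calls was 1 with the slide as a fixed block or with a dye term for each scan session, and 0 without either slide.

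**Figure D2:**
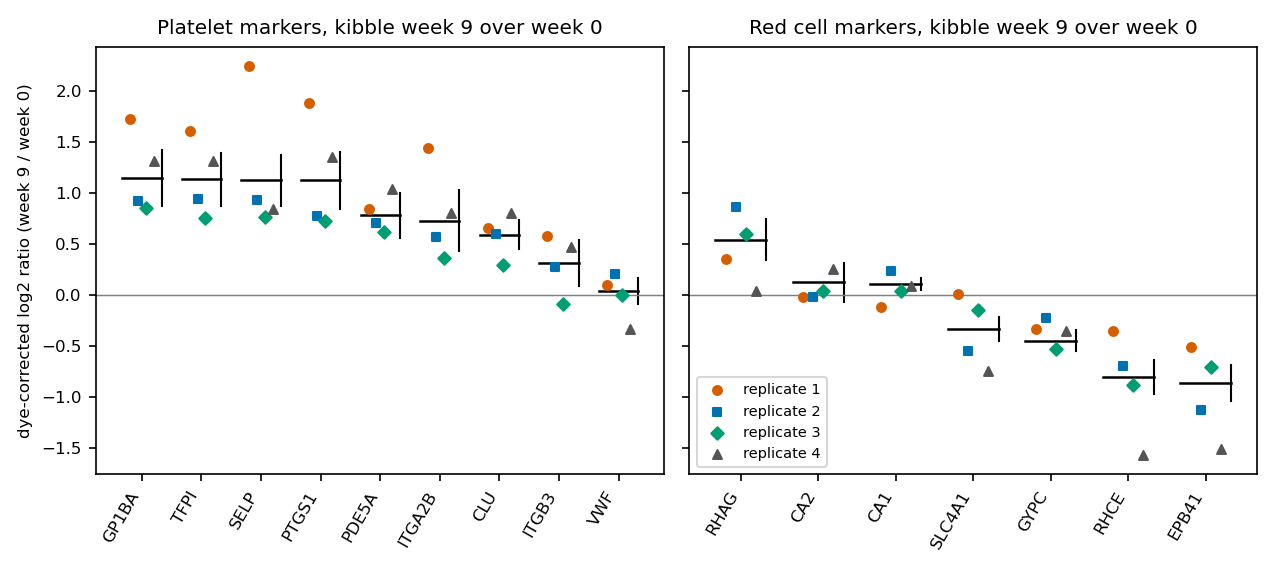
Dye-corrected log2 ratio of week 9 over week 0 for 9 platelet and 7 red cell markers, with 1 symbol for each of the 4 kibble replicates. Black bars give the fitted change and the vertical line its SE. Replicate 1 is highest for GP1BA, TFPI, SELP and PTGS1, and replicate 4 lowest for RHCE and EPB41.

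The 15 named genes that fell most, LOC609402, EPB41 and RHCE among them, had the smallest change on kibble replicate 1 in 14 cases and the largest on replicate 4 in all 15. Their median ratio was -0.34 on replicate 1, -1.07 on 2, -0.996 on 3 and -1.73 on 4. The high background of replicate 1 goes with its small values among these falls, and its part in them was not tested. Among the 15 named genes that rose most, replicate 1 instead held the largest value in 11 and the smallest in 0. Most of the other falling genes described here are best known outside the blood. MYH7, the slow myosin heavy chain of heart and skeletal muscle, had -0.63, -3.05, -2.44 and -3.43 on the 4 arrays, and a fitted -2.19 ± 0.45 (adjusted p = 0.0127). Its mean signal on the 4 kibble arrays was 699 in the week 0 and 125 in the week 9 channel, and 6 of 8 week 9 channels of the fit were above background. ADRB1, the beta-1 adrenergic receptor, gave -0.42, -1.55, -1.35 and -2.16, and a fitted -1.23 ± 0.29 (adjusted p = 0.0206). VLDLR, a receptor for triglyceride-rich lipoproteins, fell by 1.21 (SE 0.27) and INS (insulin) by 1.01 (SE 0.30). OPN1LW, a cone opsin, fell by 0.94 (SE 0.26), with 3 of 8 week 9 channels above background. CALCR, the calcitonin receptor, fell by 0.89 (SE 0.21). SULT1A1, a sulfotransferase of phenols and drugs, fell by 0.88 (SE 0.23), B3GAT2, a glucuronyl transferase, by 0.91 (SE 0.24), and KDM5C, a histone H3 lysine 4 demethylase, by 0.67 (SE 0.19).

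For several of these the brightest probe, which stands for the gene, was not matched by the gene's other probes. MYH7 had 3 others, at -0.11, -0.06 and 0.02, and the mean over its probes was -0.59. The other probe of VLDLR gave -0.04, that of INS 0.00, that of B3GAT2 -0.06 and that of KDM5C -0.07. The values of these 5 genes thus belong to 1 probe each. By contrast the other probes of LOC609402, EPB41, SELP, PTGS1, TFPI, PDE5A, SVIP and GPX1 each gave most of the reported change in the same direction. Of the 49 called genes chosen by the naming rule, 22 had another probe above background, in 17 all other probes had the same direction, and in 12 at least 1 other probe showed 0.5 of the change or more.

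**Figure D3:**
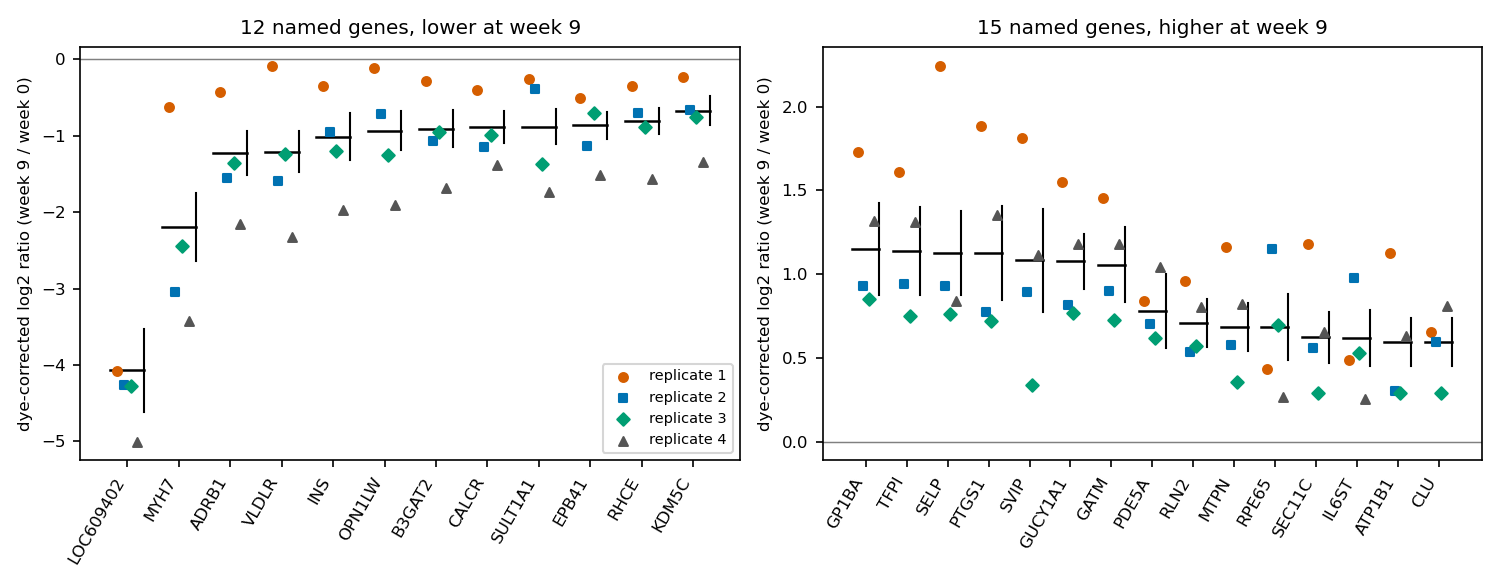
Dye-corrected log2 ratio of week 9 over week 0 on each of the 4 kibble replicates for 12 of the named genes that fell most (left) and the 15 that rose most (right). Bars give the fitted change and its SE. On the left replicate 4 is the lowest array for all 12 genes, and on the right replicate 1 is the highest for 11.

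Among the 15 largest rises, 7 were genes already named: GP1BA, TFPI, SELP, PTGS1, PDE5A, CLU and GUCY1A1. GATM, which makes the precursor of creatine, rose by 1.06 ± 0.22 (1.45, 0.90, 0.72 and 1.18), and its 3 other probes gave 0.13, 0.70 and 1.03. SVIP, an inhibitor of the removal of faulty proteins from the endoplasmic reticulum, rose by 1.08 ± 0.31 (1.81, 0.89, 0.34 and 1.11). MTPN (myotrophin, which holds back the capping of actin filaments) rose by 0.69 ± 0.14, ATP1B1, the beta subunit of the sodium pump, by 0.60 ± 0.14, and SEC11C, a subunit of signal peptidase, by 0.62 ± 0.15. In GATM, SVIP, MTPN, ATP1B1 and SEC11C replicate 1 was again the highest array and replicate 3 the lowest. RLN2, a relaxin hormone gene, rose by 0.71 ± 0.14, the same pattern aside from replicate 2 being lowest (0.96, 0.53, 0.57 and 0.81). RPE65, an enzyme of the visual cycle, and IL6ST, the gp130 chain shared by receptors of the interleukin-6 family, had another pattern. RPE65 gave 0.43, 1.15, 0.70 and 0.27, with replicate 2 highest and replicate 4 lowest, and a fitted 0.68 ± 0.20. IL6ST gave 0.49, 0.98, 0.53 and 0.25 and a fitted 0.62 ± 0.17, but its 3 other probes gave -0.02, 0.07 and 0.10.

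Lineage markers of the mononuclear cells themselves were not called. Of 2 T cell markers 0 were called. CD4, the coreceptor of helper T cells, which dog neutrophils also carry, had ratios of -0.44, -0.90, -0.97 and -1.46. Its fitted change of -0.84 ± 0.26 just missed the threshold (adjusted p = 0.0554), and it passed in 10 of 35 alternatives. CD28, the costimulatory receptor, had -0.15 ± 0.06 (adjusted p = 0.117). Among 7 markers of cytotoxic T cells and NK cells 0 passed and the median was 0.02. CD8A, the coreceptor of cytotoxic T cells, had 0.46 ± 0.17 with ratios of -0.04, 0.28, 0.73 and 0.81. The single B cell marker, MS4A1, had 0.26 ± 0.25. Of 7 monocyte markers 0 were called, with a median of 0.17. The protease CTSS had 0.41 ± 0.16, while S100A8, a calcium-binding alarmin that neutrophils share, had -0.90 ± 0.52. Of 6 dendritic cell markers 0 were called, with FLT3, a growth factor receptor, at 0.31 ± 0.10 (adjusted p = 0.0562). No plasma cell marker was tested.

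Granulocyte markers lay mostly below 0 with 1 call. Of 6 neutrophil markers 0 were called, all 6 had fitted values below 0, and the median was -0.28. CXCR2, the receptor for CXCL8, had -0.34 ± 0.24. Of 8 basophil, mast cell and eosinophil markers 1 was called, about the 10.8% called among all genes. In this list 5 members had fitted values below 0 and 3 above, and the median was -0.19. PTGDR2 (CRTH2), a prostaglandin D2 receptor of basophils, eosinophils and type 2 helper T cells, fell by 0.46 on the log2 scale (SE 0.11, adjusted p = 0.019; -0.10, -0.51, -0.40 and -0.89 on the 4 arrays). CCR3, the eotaxin receptor, had -0.67 ± 0.23 (adjusted p = 0.0754) and ALOX5, 5-lipoxygenase, -0.70 ± 0.30. In PTGDR2, CCR3 and ALOX5 replicate 1 was nearest to 0 and replicate 4 lowest, the order seen in the largest falls.

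A few T cell activation and cytokine receptor genes were called, in either direction. Of 10 costimulation and activation genes 2 rose and 1 fell, and of 6 cytokine receptor and JAK-STAT genes 2 rose and 1 fell, against 4.68% of all genes called higher and 6.14% called lower. IL2RA is counted in both of these small lists. IL2RA (CD25), the chain that gives the interleukin-2 receptor its high affinity, was even over the arrays, at 0.40, 0.48, 0.40 and 0.45, with a fitted rise of 0.45 ± 0.11 (adjusted p = 0.0216). Its other probe gave 0.37. CD44, a receptor for hyaluronan on activated and memory T cells that platelets and monocytes also carry, rose by 0.58 ± 0.14 (0.86, 0.52, 0.24 and 0.76). SLAMF1 (CD150), a self-binding costimulatory receptor, fell by 0.26 on the log2 scale (SE 0.07). JAK1, the kinase that gp130 and the interleukin-2 receptor use, fell by 0.40 (SE 0.12), while its 4 other probes lay from -0.12 to 0.16. Of 9 chemokine receptor and homing genes 0 were called and the median was -0.30. CXCR3, a receptor of type 1 helper and cytotoxic T cells, had -0.74 ± 0.23 (adjusted p = 0.0558).

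Inflammatory and antigen presentation lists showed no calls. Of 14 NF-kB target genes 0 were called, and 13 had fitted values below 0 with a median of -0.12. CXCL8, the neutrophil attractant, had ratios of -0.82, -1.99, -0.83 and -2.99, a wide spread, and a fitted -1.21 ± 0.85. No member was called among 7 interferon response genes, 7 Toll-like and pattern receptor genes, 8 MHC class I genes, 10 MHC class II genes, 4 immediate early genes or 6 glucocorticoid response genes, and each list's median lay within 0.2 of 0. Of 10 prostanoid and leukotriene genes PTGS1 alone was called, near the 10.8% called among all genes, and it is already counted in the platelet list.

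Protein turnover and redox genes gave few calls. PSMB3, a subunit of the beta ring of the 20S proteasome, had ratios of -0.55, -0.54, -0.58 and -0.57, nearly the same on each array. It fell by 0.57 on the log2 scale (SE 0.08, adjusted p = 0.00466), and PSMB7, the subunit with trypsin-like activity, by 0.23 (SE 0.06), so that 2 of 9 proteasome and ubiquitin genes fell and 0 rose, against 6.14% of all genes called lower. PSMB3 kept its call in 33 of 35 alternatives, losing it without slide 1 (adjusted p = 0.0776) or slide 2 (adjusted p = 0.159). Of 12 antioxidant enzymes and selenoproteins 1 rose and 1 fell, a share near the 10.8% called among all genes. GSTP1, a glutathione transferase, rose by 0.50 ± 0.13 (0.73, 0.38, 0.42 and 0.60). GPX1, the selenium enzyme that removes peroxides and is abundant in red cells, fell by 0.60 on the log2 scale (SE 0.16; -0.40, -0.60, -0.36 and -1.09), and its other probes gave -0.87 and -0.63. SSR1, a subunit of the complex beside the protein channel of the endoplasmic reticulum, rose by 0.38 ± 0.09. It was the 1 call among 4 unfolded protein response genes, against 10.8% called among all genes. SSR1 stood at -0.09 on replicate 3 and its other probe at 0.05. No member was called among 20 ribosomal protein genes, whose median was -0.04, nor among 5 translation factor and 8 chaperone genes.

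Metabolic lists held few calls. Against 10.8% called among all genes, 1 of 8 PPAR targets and genes of fatty acid oxidation rose: CPT1A, which admits long-chain fatty acids to mitochondria, by 0.36 ± 0.11 (0.03, 0.39, 0.23 and 0.67; adjusted p = 0.0447), with another probe at 0.14. It lost that call in 23 of 35 alternatives. UCP2, a mitochondrial carrier, had -0.32 ± 0.10 (adjusted p = 0.0541) and COX8A, a subunit of cytochrome c oxidase, -0.18 ± 0.06 (adjusted p = 0.0564). Of 6 glucose uptake and glycolysis genes 0 were called by their brightest probes. GAPDH had -0.35 ± 0.15, and its other probes lay from -0.68 to -0.30. Other probes of ALDOC gave -0.50 and -0.45 against -0.20 for its brightest, and those of TPI1 -0.08 and 0.05 against 0.15. These other probes were not counted in the calls. Of 3 insulin and growth factor signalling genes 1 was called, against 10.8% of all genes. AKT2, a kinase downstream of the insulin receptor, fell by 0.21 on the log2 scale (SE 0.06), and its other probe gave -0.12. No member was called among 7 respiratory chain, 8 iron and haem, 7 amino acid and 6 one-carbon and nucleotide genes. Of 9 drug transporter and xenobiotic genes 1 rose and 1 fell, against 4.68% of all genes called higher and 6.14% called lower. GSTP1, also counted among the antioxidant enzymes, rose. ABCC1, an efflux pump of glutathione conjugates, fell by 0.34 (SE 0.10), with replicate 1 at 0.05.

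Among 18 apoptosis and survival genes 1 rose and 2 fell, also near the 10.8% called among all genes, so the members are given as single genes. TNFSF10 (TRAIL), a ligand that triggers cell death, rose by 0.41 ± 0.10 (0.43, 0.24, 0.24 and 0.73). BAK1, which opens the mitochondrial outer membrane, fell by 0.28 (SE 0.07), and BCL2, which keeps it closed, by 0.32 (SE 0.09) with ratios of -0.57, -0.45, -0.03 and -0.09. BCL2 and JAK1 each lost their call in 22 of 35 alternatives.

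**Figure D4:**
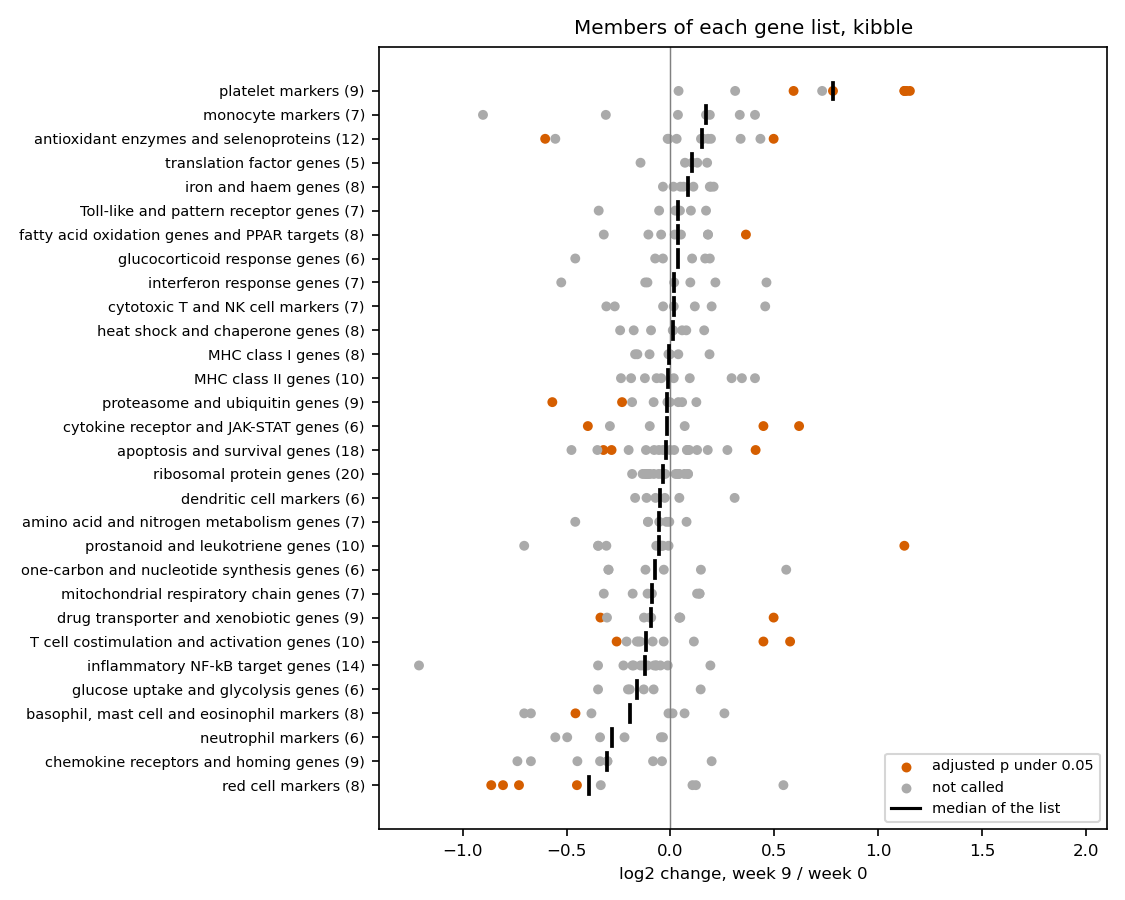
Fitted log2 change from week 0 to week 9 on kibble for each measured member of the 30 gene lists with at least 5 members, the number in brackets. Orange members passed the test, and the black bar is the list's median. The platelet list has the highest median, 0.78, and the red cell list the lowest, -0.39, while 26 of 30 medians lie within 0.2 of 0.

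Whether the change on kibble differed from that on meat was tested in the same fit. No gene passed, with 0 of 25079 called by limma, 1718 at an unadjusted p under 0.05 and a smallest adjusted p of 0.591. There were 12 calls without replicate 2 of the week 0 arrays with meat in Cy3 and kibble in Cy5, and 1 with Feature Extraction signals. The test of the difference was less precise than that of the change, with an SE of 0.35 against 0.27 for GP1BA. On meat itself 76 genes rose (0.303%) and 40 fell (0.159%), together 0.463% of those tested. The dye term itself was called in 7.05% of genes, with Cy5 the brighter in 3.18% and the dimmer in 3.88%. The 2 changes share the dye term and the diet arrays of the fit, so their likeness over genes is no independent result, and values are given side by side. GP1BA changed by 1.15 ± 0.27 on kibble and 0.85 ± 0.27 on meat, SELP by 1.13 and 1.02, and GUCY1A1 by 1.08 and 1.18, the last called on meat as well (adjusted p = 0.0169). LOC609402 had -4.07 on kibble and -2.38 ± 0.54 on meat (difference adjusted p = 0.725), EPB41 -0.86 and -0.73, and PSMB3 -0.57 and -0.27. The meat arrays were uneven. On meat replicate 4 LOC609402 stood at 0.10 and EPB41 at 0.06, against -3.33 to -2.32 and -1.02 to -0.61 on the other meat arrays. The red cell list's median on meat replicates 1 to 4 was -0.32, -0.32, -0.55 and -0.004. The platelet list's median on the 4 meat arrays was 0.07, 0.94, 0.78 and 1.05, with replicate 1 lowest. That array had the most faulty spots and the most spots above background.

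The genes whose change differed most between the diets by p were small in effect, and none passed. SMOC2, a matrix protein, had the smallest p of the named genes: -0.39 on kibble (-0.23, -0.59, -0.25 and -0.48) and -0.04 on meat, a difference of -0.34 ± 0.07 (adjusted p = 0.682). Its fall on kibble passed (adjusted p = 0.00351), though only 6 of 7 week 0 and 6 of 8 week 9 channels were above background. CD1A8 and CD1B, which present lipids to T cells, differed by -0.35 ± 0.09 and -0.51 ± 0.13, DLA-DMB, a peptide loader of MHC class II, by -0.40 ± 0.12 and AP3M1, an adaptor of lysosomal sorting, by -0.33 ± 0.09. In the other direction DNAJC25, a DnaJ-type cochaperone, differed by 0.27 ± 0.08 and OR2T11, an olfactory receptor, by 0.23 ± 0.09. CRH, corticotropin-releasing hormone, differed by 0.20 ± 0.08 with a called rise of 0.23 ± 0.06 on kibble (its other probe gave -0.057, and the call was lost in 16 of 35 alternatives), and LIPF, gastric lipase, by 0.14 ± 0.06, the last dim, with 3 of 8 week 9 channels above background. The sign for DNAJC25 turned with median centring. The adjusted p was 0.725 for each of these 8.

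**Figure D5:**
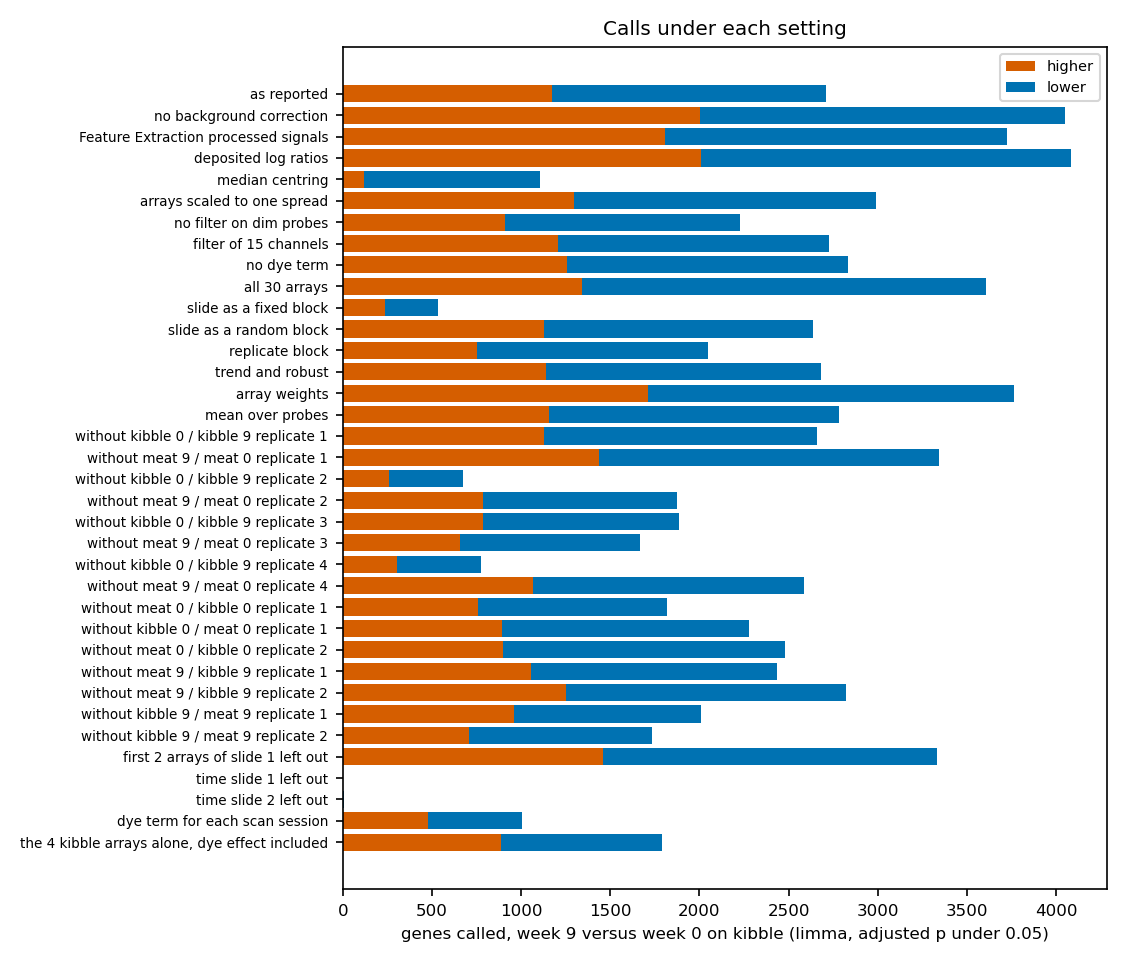
Number of genes called higher and lower from week 0 to week 9 on kibble (horizontal axis) as reported and under each of 35 other settings (vertical axis, each left-out array given as its Cy3 sample over its Cy5 sample). The count is 2713 as reported, 677 without kibble replicate 2, 775 without replicate 4, 536 with the slide as a fixed block and 0 or 8 without one of the slides.

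The number of calls moved with single arrays. Without kibble replicate 2 there were 677 calls and without replicate 4 there were 775, while without replicate 1, the array of high background, there were 2662. Outside the kibble arrays it was 1669 without meat replicate 3, and 1735 without replicate 2 of the week 9 arrays with kibble in Cy3 and meat in Cy5. The direction did not change: the 49 called genes chosen by the naming rule had the same sign in all 35 alternatives. That is no independent check, since the alternatives reuse the same arrays. The largest changes were also chosen for 1 sign on all 4 kibble arrays. GUCY1A1, GYPC, LOC609402 and PSMB3 kept their calls in 33 of the 35, more than any other, and lost them only where one of the slides was left out.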

How the data were processed

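The deposited scanner files hold, per the file headers, the median intensity of each spot and of its local background in Cy3 and Cy5, read with Agilent Feature Extraction 10.10.1.1. The deposited matrix holds normalised log2 ratios, which the authors computed with limma, per the submitters' processing notes, and these served as an alternative. The build named in the file headers is canFam3.1, and no coordinates were used.

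Of 45220 spots per array 43803 were not controls, for 43603 probes. RefSeq accessions gave 2175 probes a symbol (1353 symbols). In the 15 arrays 606 faulty spots were left out and 0 were saturated. Background was corrected by normexp (offset 50) on median signals, and ratios were normalised by loess within arrays. Probes above background in at least 7 of 30 channels were kept, and the brightest stood for each gene. limma 3.58.1 in R 4.3.3 fitted a term per group and a dye term, with 11 residual degrees of freedom. A fitted value also uses the path through the meat and diet arrays, so it need not equal the mean of the 4 dye-corrected ratios. The dye term passed in 1769 genes (7.05%). Tests were two-sided with Benjamini-Hochberg adjustment at 0.05. On simulated data 78 of 100 changes of 0.5 log2 and 93 of 100 of 1 log2 were recovered among 25079 genes, with 13 false calls. The simulated noise was independent between genes and between arrays, with no slide or scan session effect. These counts are therefore no error rates of the real calls. The number of arrays limits the precision.

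Members and the 41 gene lists were chosen with earlier results of these data known. Named genes are the 15 called genes with the largest change in each direction and 1 sign on all 4 arrays, up to 4 members of smallest p per list, and the 5 of smallest p in each direction of the diet difference. Members of the platelet and red cell lists and a few marker genes were named beyond this rule after their values were seen. A few genes that the rule picks are counted but not reported here by name. Alternatives were other backgrounds, normalisations, filters, dye terms, array sets, blocks and weights, and the omission of arrays singly. Separate dye terms by scan session, the 4 kibble arrays alone and the counts of list members were added after seeing the data.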

Additional observations from a re-analysis of the deposited data

Results flagged for a closer look

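In 1 of 49 called genes 1 kibble array stood far from the other 3 by Dixon's test for 4 values. SELP had 2.24 on replicate 1 against 0.76 to 0.93, a gap of 0.887 of the whole range, above the 95% critical value. Of 30 list medians 2 did so, with replicate 4 apart each time. The NF-kB target list had medians of -0.13, -0.11, -0.11 and -0.29 (0.866 of the range), and the prostanoid and leukotriene list had -0.10, -0.10, -0.14 and -0.48 (0.898). Chance alone gives about 1 flag in 20 such groups. No explanation of these values was tested.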

How the results depend on the processing

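Over 35 alternatives, which reuse the same arrays, the 49 named called genes kept their direction in every one, while their calls did not all hold. Changes on kibble were called in 4082 genes with the deposited ratios, 536 with the slide as a fixed block, 1105 with median centring, 1004 with a dye term for each scan session, 1789 in the 4 kibble arrays alone, 0 without slide 1 and 8 without slide 2. Leaving out single arrays gave 677 to 3346 calls. With the replicate block there were 2049 calls, 1846 of them shared with the reported 2713. The replicate numbers are not shown to pair the arrays: deviations of same-numbered kibble and meat arrays correlated at 0.16, 0.11, 0.09 and 0.08. Those of differently numbered arrays correlated at -0.54 to 0.43. Kibble and meat arrays hold dogs of different diet groups, so these values cannot show which arrays share a dog. There were 3607 calls with all 30 arrays. The diet difference gave 1 call with Feature Extraction signals and 0 to 12 when single arrays were left out. The dye term was called in 13851 genes with median centring, 5409 with all 30 arrays, 428 without slide 2, and 657 to 2378 without single arrays (657 and 813 without replicates 1 and 2 of kibble Cy3 against meat Cy5 at week 9). Platelet members called higher numbered 0 with the slide as a fixed block, with median centring, with a dye term per scan session and without either slide, and 1 to 7 without single arrays. Red cell members called lower numbered 1 with the slide as a fixed block and with a dye term per scan session, 0 without either slide, and 3 to 5 without single arrays. VWF turned negative with median centring (-0.33), without slide 1 (-0.082) and without the first 2 arrays of slide 1 (-0.039), and ranged from -0.019 to 0.12 without single arrays. The diet difference of DNAJC25 turned to -0.038 with median centring. Leaving out a slide leaves 2 kibble arrays, and the cause of the other changes was not tested. Signal over background limits dim probes, above all on kibble replicate 1.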
